A study of Mus musculus with 88 samples.

Results

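The comparison described here is that of a Fosb-directed guide with a control guide in the nucleus accumbens of female mice whose vectors did not depend on Cre. Libraries were chosen by their labels alone, as all those of the female groups named D1-D2, and they number 20 of the 87 libraries used from the series: 12 with the Fosb guide and 8 with the control guide. The series measured RNA of the accumbens after a vector system was used to activate Fosb in D1, in D2 or in both kinds of medium spiny neuron, in male and female mice. In the Fosb-guide group the mice were female D1-Cre animals backcrossed to C57BL/6 and received 2 herpes simplex viruses, 1 carrying a nuclease-dead Cas9 joined to CREB(S133D), a constitutively active form of the transcription factor CREB, and 1 carrying the guide named g11, directed to the Fosb locus. The control-guide group shared the sex, the D1-Cre genotype, the C57BL/6 background, the Cas9-CREB virus and the 6 days between surgery and dissection, and its second virus carried the non-targeted guide named gNT. Neither virus was Cre-dependent, so expression was not restricted by the labels to D1 neurons although every animal carried D1-Cre. All 20 libraries were ribosomal-RNA-depleted total RNA of sequencing batch 1. The labels do not say how many animals each library came from, so the spread between libraries, and every p-value here, may be in part technical.

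Fosb encodes a leucine-zipper protein of the Fos family and, by alternative splicing, the truncated and unusually stable ΔFosB; both pair with Jun proteins to form AP-1, which binds the element TGANTCA. In the accumbens, ΔFosB is known to build up in medium spiny neurons, the GABAergic output neurons that carry either the D1 or the D2 dopamine receptor, after repeated drug exposure or stress. CREB binds the cyclic AMP element TGACGTCA, and an active CREB brought to a promoter by dead Cas9 is used to raise transcription there. Interferon signalling, which recurs in the results below, acts on promoters through a response element holding GAAANNGAA, and its products include antiviral proteins, the immunity-related and guanylate-binding GTPases and the antigen-presenting machinery.

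The bases ahead of the annotated start sites of Fosb and of 3 interferon-responsive genes are shown because Fosb is the gene that the guide was made for and because the levels of the interferon-responsive genes differ widely between libraries. RefSeq promoter windows of build GRCm38.p6 were used, each cut to the 250 bases before the start. They lie at chr7:19310046-19310295 on the minus strand for Fosb, chr2:122147437-122147686 on the plus strand for B2m, chr11:58199306-58199555 on the plus strand for Igtp and chr19:34583279-34583528 on the plus strand for Ifit3. Capitals mark matches on either strand to GAAANNGAA, TGACGTCA or TGANTCA.
Fosb: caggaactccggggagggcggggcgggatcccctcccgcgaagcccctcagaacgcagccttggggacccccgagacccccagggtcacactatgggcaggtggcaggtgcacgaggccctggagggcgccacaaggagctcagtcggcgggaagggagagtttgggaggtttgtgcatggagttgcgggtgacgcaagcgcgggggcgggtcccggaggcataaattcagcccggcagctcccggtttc
B2m: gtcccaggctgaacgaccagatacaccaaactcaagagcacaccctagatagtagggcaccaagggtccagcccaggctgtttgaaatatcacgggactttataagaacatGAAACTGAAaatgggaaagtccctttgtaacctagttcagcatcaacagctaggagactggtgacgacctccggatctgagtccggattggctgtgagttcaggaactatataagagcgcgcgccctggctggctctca
Igtp: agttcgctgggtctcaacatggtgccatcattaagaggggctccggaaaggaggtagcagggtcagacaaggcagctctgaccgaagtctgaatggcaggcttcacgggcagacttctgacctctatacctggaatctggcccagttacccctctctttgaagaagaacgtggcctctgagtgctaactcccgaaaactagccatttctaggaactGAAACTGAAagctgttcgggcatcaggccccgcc
Ifit3: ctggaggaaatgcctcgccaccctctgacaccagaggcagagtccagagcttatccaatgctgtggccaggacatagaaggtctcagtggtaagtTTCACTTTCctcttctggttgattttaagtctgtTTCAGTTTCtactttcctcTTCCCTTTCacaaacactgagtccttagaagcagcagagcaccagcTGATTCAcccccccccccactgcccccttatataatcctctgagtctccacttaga
No match to any of the 3 motifs was found in the Fosb window. B2m, the light chain of MHC class I, held 1 GAAANNGAA starting at position -139 from the start site, and Igtp, an immunity-related GTPase, held 1 at -34. Ifit3, an antiviral protein, held 3 on the opposite strand, at -155, -121 and -102, and 1 TGANTCA at -56. Of all 32851 RefSeq windows of this length, 7.13% held GAAANNGAA, 6.75% held TGANTCA and 1.55% held TGACGTCA, and no 2 capitalised matches in these windows overlap. Counted by gene, GAAANNGAA was present in 8.18% of all 27025 genes with a window. Among genes with a window, it was present in 9 of 10 interferon-gamma GTPases and 9 of 16 interferon-stimulated antiviral genes of the lists used here. It was present in 3 of 15 of a list of MHC class I and immunoproteasome genes. In a list of genes shared by all medium spiny neurons it was present in 1 of 12. A match of letters is a description of the sequence and does not show that a factor binds there.

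Levels are given as CPM, counts relative to a library size scaled by the trimmed mean of M-values (TMM), and the main test was edgeR's quasi-likelihood test over 25420 genes in a model of all 87 libraries, with Benjamini-Hochberg adjustment. Library totals were 13481753 to 57336235 counts with the Fosb guide and 23326739 to 37533949 counts with the control guide. Some libraries stood apart and are named where they bear on a result. Fosb-guide library 19610 had 96.8% of its counts in its 10 most abundant genes, so that 430059 counts were spread over all others, and 16732 genes had any count, against 26013 to 34702 genes in the other Fosb-guide libraries and 29399 to 31434 in the control-guide libraries. Although the libraries were made with ribosomal RNA depletion, 5 genes, among them CT010467.1, annotated as ribosomal RNA, and Lars2, took 96.3%, 49.1%, 38.1% and 21.9% of the counts in Fosb-guide libraries 19610, 19597, 16761 and 19600 and at most 0.968% in the other Fosb-guide libraries, against 8.402% in control-guide library 19750 and at most 0.402% in the other controls. Fosb-guide library 19749 held the Y-linked transcript Ddx3y at 30.9 CPM beside Xist at 30.0 CPM, where the male libraries of the series held Ddx3y at 51.3 to 110 CPM. Lower levels of Ddx3y were counted in control-guide libraries 19598 and 19762, at 7.20 and 5.31 CPM (294 and 155 counts). The 4.82 CPM of the shallow Fosb-guide library 19610 rests on 3 counts, a number also seen in other Fosb-guide libraries such as 16762. Control-guide libraries 19598, 19599, 19750 and 19754 had low levels of interferon and immune genes, as described below. Markers of the medium spiny neurons of the labelled tissue were present in each of the 20 libraries: the signalling protein gene Ppp1r1b had 213 to 834 CPM with the Fosb guide and 305 to 690 CPM with the control guide, and the opioid peptide gene Penk had 383 to 1228 CPM with the Fosb guide and 498 to 1191 CPM with the control guide.

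No difference in Fosb itself was detected between the guides. Its level in the Fosb-guide libraries was 3.21 CPM at the lowest, 6.48 at the median and 11.9 at the highest, against 4.37, 6.73 and 9.27 CPM in the control-guide libraries. The 2 ranges overlap almost entirely, with 3 Fosb-guide libraries above all controls (19596, 16761 and 16764) and 1, the shallow library 19610, below all of them. The means were 6.89 ± 2.53 CPM with the Fosb guide and 6.71 ± 1.93 CPM with the control guide (SD, n = 12 and 8), and the edgeR log2 fold change was 0.08 with a standard error of 0.20 (adjusted p = 1.0). An exact two-sided permutation test of mean log2 CPM over all 125970 splits gave p = 0.988. The lowest value rests on 2 counts of Fosb in library 19610; without that library the mean was 7.22 ± 2.36 CPM with the Fosb guide (n = 11) and the exact permutation p was 0.643. Gene-level counts do not separate Fosb from ΔFosB transcripts.

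In 3 other comparisons of the series the same guide gave edgeR log2 fold changes for Fosb of 0.60 (standard error 0.27) in males without Cre dependence, 0.41 (0.23) in females with D1-dependent vectors and -0.37 (0.23) in females with D2-dependent vectors. The male groups with D1-dependent and D2-dependent vectors were not compared here. The difference between the female and the male effect without Cre dependence was -0.52 on the log2 scale (unadjusted p = 0.131, adjusted p = 1.0), so the female value was lower than the male one by less than the test could separate from the spread.

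**Figure D1:**
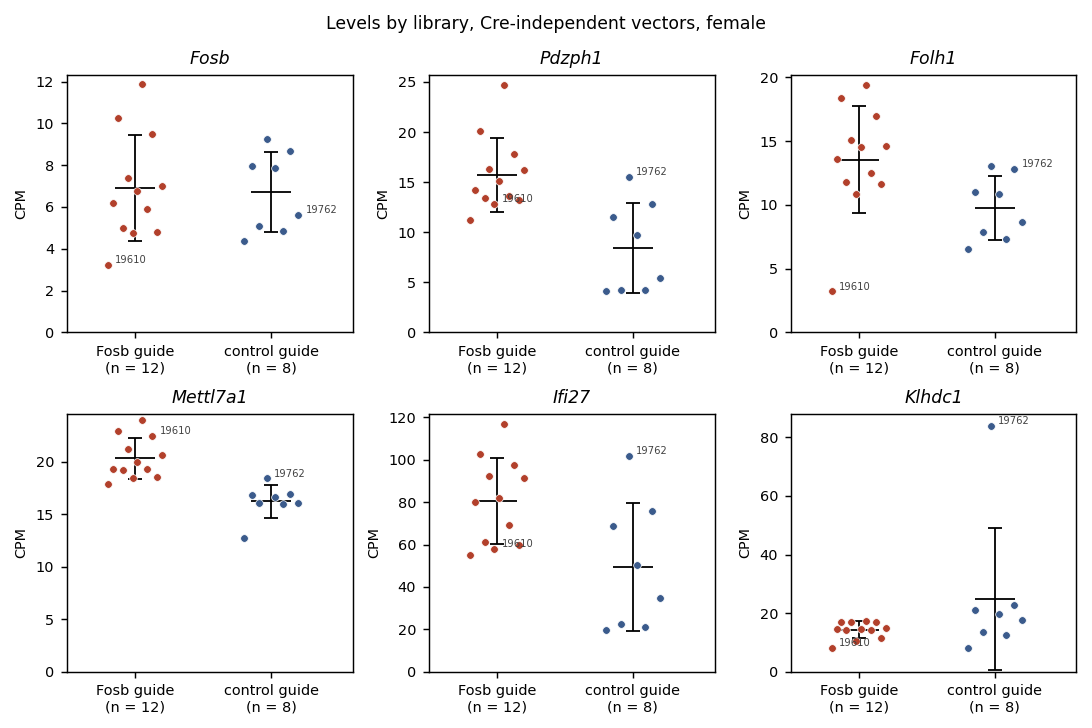
CPM of Fosb and of 5 genes named by their p-values in each library, with the 12 Fosb-guide libraries left of the 8 control-guide libraries; bars give the mean and SD, and libraries 19610 and 19762 are numbered. Fosb overlaps widely between the guides, Pdzph1 and Mettl7a1 lie higher with the Fosb guide, and the Klhdc1 difference rests largely on control-guide library 19762 at 83.9 CPM.

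Across all expressed genes, no gene passed the edgeR test. Of 25420 genes tested, 0 had an adjusted p under 0.05 (0.0%). At an unadjusted p under 0.05, 526 genes were higher (2.07% of those tested) and 338 were lower (1.33%) with the Fosb guide. That total of 864 genes depended on single libraries: it was 1796 without control-guide library 16760, 1641 without Fosb-guide library 19596 (748 higher and 893 lower), 1499 without control-guide library 19762 and 565 and 569 without control-guide libraries 19750 and 19754. In a fit of the 20 libraries alone, 186 genes were higher and 194 lower at that p. The median log2 fold change of all tested genes was close to 0, with 49.0% of genes above 0. DESeq2, which fits the same counts with its own scaling of the libraries and other shrinkage of the spread, called 2 genes higher. That is 0.00787% of 25410 genes with an adjusted p. With quality weights, limma-voom called 193 genes higher (0.759%) and 0 lower. A model with 3 surrogate variables called 12 genes higher (0.0472%) and 0 lower. Without library 19610 the edgeR count was again 0, with 930 genes at an unadjusted p under 0.05, and without both 19610 and 19749 it was 0, with 661 such genes.

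**Figure D2:**
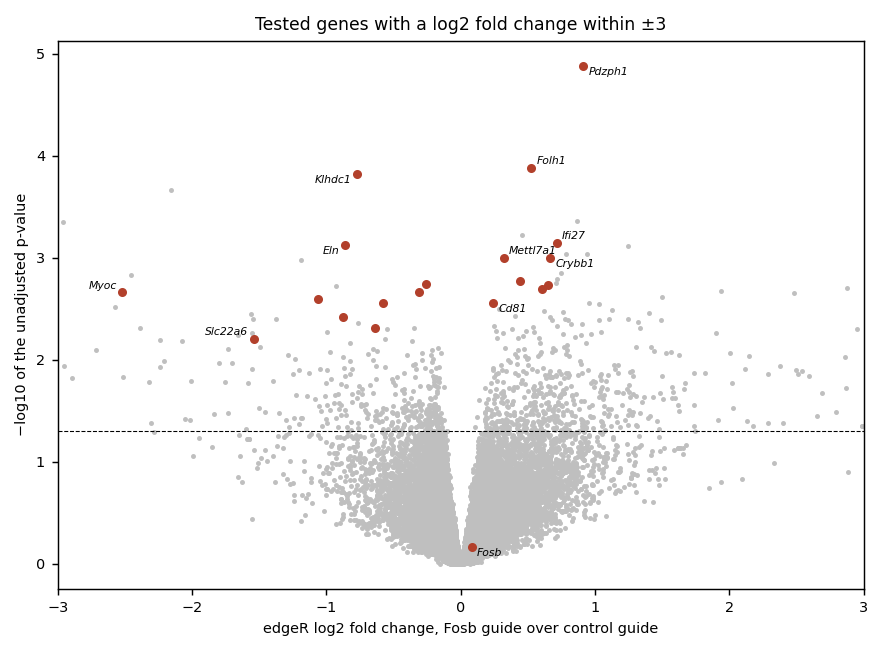
Each tested gene by its edgeR log2 fold change (Fosb guide over control guide) and the negative log10 of its unadjusted p-value, with the dashed line at p = 0.05; genes named by rule are in red and 21 genes beyond a log2 fold change of 3 in either direction are not drawn. Pdzph1 has the smallest p among the named genes, and Fosb sits near the bottom at a log2 fold change of 0.08.

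Pdzph1 had the smallest p of the named genes. This gene at chr17:58878808-58991375 encodes a protein with PDZ and pleckstrin homology domains. Its level was 11.3, 14.7 and 24.7 CPM at the lowest, median and highest of the Fosb-guide libraries, against 4.12, 7.54 and 15.5 CPM of the control-guide libraries. All 12 Fosb-guide libraries lay above the control median, and the groups overlap through control-guide libraries 19762, 19719 and 19727, at 15.5, 12.8 and 11.5 CPM. The edgeR log2 fold change was 0.91 with a standard error of 0.20 (unadjusted p = 1.31e-05, adjusted p = 0.332). It was called by DESeq2 (0.94, adjusted p = 0.0288), by limma-voom (1.19, adjusted p = 0.00585) and with 3 surrogate variables (0.90, adjusted p = 0.0188), and by edgeR when control-guide library 19762 was left out (1.09, adjusted p = 0.0122). The 4 control-guide libraries at 4.12 to 5.39 CPM were 19598, 19599, 19750 and 19754, the same 4 that were low in interferon genes.

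Folh1, the glutamate carboxypeptidase that cleaves the peptide N-acetylaspartylglutamate, was the other gene called by DESeq2. Its level was 3.21, 14.1 and 19.4 CPM at the lowest, median and highest with the Fosb guide, against 6.55, 9.76 and 13.1 CPM with the control guide. The lowest value is that of the shallow library 19610, and the other 11 Fosb-guide libraries lay above the control median. Control-guide libraries 19598, 19599, 19750 and 19754 were again the lowest controls, at 6.55 to 8.65 CPM. The other controls had at least 10.9 CPM, within the Fosb-guide range. The edgeR log2 fold change was 0.53 with a standard error of 0.13 (adjusted p = 0.764). The DESeq2 value was 0.57 (adjusted p = 0.0366), and limma-voom also called the gene (0.61, adjusted p = 0.0107).

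Of the other 8 genes named for small p-values above 0, 3 are immune or microglial. Ifi27, an interferon-induced mitochondrial protein, averaged 80.5 ± 20.1 CPM with the Fosb guide and 49.4 ± 30.3 CPM with the control guide (SD, n = 12 and 8), an edgeR log2 fold change of 0.71 (standard error 0.20). Cd33, a sialic-acid-binding receptor of myeloid cells, averaged 12.6 ± 2.00 CPM with the Fosb guide and 8.23 ± 4.05 CPM with the control guide. Crybb1, a crystallin that microglia also express, averaged 17.3 ± 3.28 CPM with the Fosb guide and 11.1 ± 5.84 CPM with the control guide. In each of these 3 genes all 12 Fosb-guide libraries lay above the control median, and the ranges overlapped. In each, the 4 lowest controls were 19598, 19599, 19750 and 19754, at 19.9 to 34.7 CPM for Ifi27, 4.41 to 7.02 CPM for Crybb1 and 2.94 to 6.71 CPM for Cd33, and the other 4 controls had at least 50.5, 11.6 and 8.97 CPM.

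Mettl7a1, a methyltransferase-like protein of lipid droplets, had 17.9, 19.6 and 24.0 CPM at the lowest, median and highest with the Fosb guide, against 12.7, 16.4 and 18.4 CPM with the control guide. Of the control-guide libraries, 19762 at 18.4 CPM alone reached the Fosb-guide range. The edgeR log2 fold change was 0.32 with a standard error of 0.09 (adjusted p = 1.0), and the surrogate-variable model called it (0.37, adjusted p = 0.0410). Cd81, a tetraspanin, averaged 347 ± 34.6 CPM with the Fosb guide and 294 ± 44.4 CPM with the control guide, a log2 fold change of 0.24. Its lowest controls were 19598, 19599, 19750 and 19754, at 224 to 278 CPM, and the other controls had at least 295 CPM. The histone gene Hist2h3c1 had a log2 fold change of 0.65.

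Lars2, the mitochondrial leucyl-tRNA synthetase, had an edgeR log2 fold change of 7.44 that came from few libraries. TMM-scaled levels were 4.22e+06 CPM in Fosb-guide library 19610, inflated by the scaling of its library size by 0.046, and 177600, 113700 and 67910 CPM in Fosb-guide libraries 19597, 16761 and 19600, while the lowest Fosb-guide library stood at 66.2 CPM. Control-guide library 19750 reached 15290 CPM and the other control-guide libraries 30.3 to 1009 CPM. Without library 19610 the log2 fold change was 3.96, and without control-guide library 19750 it was 10.2. CT010467.1, the ribosomal RNA gene, which lies on chromosome 17 and was named after its values were seen, was highest in the same 4 Fosb-guide libraries and, among controls, in 19750; its part in the Lars2 result was not tested.

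The genes named for small p-values below 0 fell into a set that rests largely on single control-guide libraries and a set that does not. Klhdc1 and Klhdc2, neighbouring genes on chromosome 12 for substrate receptors of a ubiquitin ligase, had 8.04 to 17.3 CPM and 67.2 to 97.3 CPM in the Fosb-guide libraries. Control-guide library 19762 had 83.9 CPM of Klhdc1 and 402 CPM of Klhdc2, and the other control-guide libraries had at most 22.7 and 118 CPM. Klhdc1 was also above every Fosb-guide library in controls 19598, 19599, 19750 and 19754, at 17.6 to 22.7 CPM. The edgeR log2 fold change of Klhdc1 was -0.77, and -0.18 without 19762; that of Klhdc2 was -0.64, and -0.06 without 19762. Arf6, a small GTPase further along chromosome 12, had 28.9 to 70.2 CPM in the Fosb-guide libraries, 324 CPM in control-guide library 16760 and at most 72.9 CPM in the other controls. It was named after its values were seen.

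Meningeal and matrix genes showed the same kind of dependence. Myoc, a secreted glycoprotein of meningeal and ocular tissue, had at most 3.89 CPM in the Fosb-guide libraries, 42.8 CPM in control-guide library 19762 and at most 3.50 CPM in the other controls. Slc22a6, an organic anion transporter, had at most 2.09 CPM with the Fosb guide, 10.1 CPM in 19762 and at most 1.08 CPM in the other controls. Lama1, a basement membrane laminin, had at most 4.67 CPM with the Fosb guide, 10.8 CPM in 19762 and at most 4.20 CPM in the other controls. Without 19762 their log2 fold changes moved to 0.07 for Myoc, -0.09 for Slc22a6 and -0.22 for Lama1, against -2.52, -1.54 and -0.58 with it. Eln, elastin, had 9.69 CPM in control-guide library 19750, and its log2 fold change was -0.86 with that library and -0.37 without it.

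Togaram1, Lyst, Chp2 and Fcrls did not rest on 1 library. Togaram1, a ciliary tubulin-binding protein, had 45.0, 66.6 and 89.3 CPM at the lowest, median and highest with the Fosb guide, against 64.1, 83.6 and 95.5 CPM with the control guide (log2 fold change -0.26, standard error 0.08). Lyst, a regulator of lysosomal trafficking, had 81.6, 105 and 157 CPM with the Fosb guide, against 99.0, 133 and 158 CPM with the control guide (-0.31, standard error 0.10). The ranges of both genes overlap widely, and the adjusted p-values were 1.0. The 4 highest Togaram1 controls, at 84.8 to 95.5 CPM, were 19598, 19599, 19750 and 19754. Fcrls, an Fc-receptor-like gene of resting microglia, had 6.35, 16.2 and 43.9 CPM with the Fosb guide, against 13.4, 32.3 and 58.9 CPM with the control guide (-0.88, standard error 0.29). Its 4 highest controls, at 38.4 to 58.9 CPM, were 19598, 19599, 19750 and 19754, and Fosb-guide library 16762 was as high. Chp2, a calcineurin-like calcium-binding protein, had 0.418 to 1.61 CPM with the Fosb guide, 2.65 to 3.72 CPM in the same 4 controls and at most 1.03 CPM in the other controls.

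Interferon-responsive genes were spread far more widely among the control-guide libraries than among the Fosb-guide libraries. Igtp, the immunity-related GTPase whose promoter window is printed above, had 173, 491 and 606 CPM at the lowest, median and highest with the Fosb guide. In the control-guide libraries it had 663, 625, 590 and 528 CPM in 16760, 19762, 19727 and 19719, and 35.2, 16.6, 14.5 and 6.36 CPM in 19598, 19599, 19750 and 19754. Every Fosb-guide library thus lay above 4 controls, and 2 of the other 4 controls, 16760 and 19762, lay above every Fosb-guide library. The means were 445 ± 125 CPM with the Fosb guide and 310 ± 314 CPM with the control guide (SD, n = 12 and 8). The edgeR log2 fold change of Igtp, which compares mean levels, was 0.52 with a standard error of 0.47 (adjusted p = 1.0). That of limma-voom, which compares mean log2 levels and also weights the libraries by quality, was 2.58 (adjusted p = 0.00844).

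B2m, whose promoter window is also printed above, was distributed in the same way. It had 585, 1071 and 1673 CPM at the lowest, median and highest with the Fosb guide, against 1077 to 1424 CPM in control-guide libraries 16760, 19719, 19727 and 19762 and 119, 87.5, 132 and 50.3 CPM in 19598, 19599, 19750 and 19754. The lowest Fosb-guide library, 19596, was again above those 4 controls. The edgeR log2 fold change was 0.61 with a standard error of 0.39 (adjusted p = 1.0). On the limma-voom scale it was 1.96 (adjusted p = 0.00844), and B2m was called with 3 surrogate variables (1.00, adjusted p = 0.0260).

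**Figure D3:**
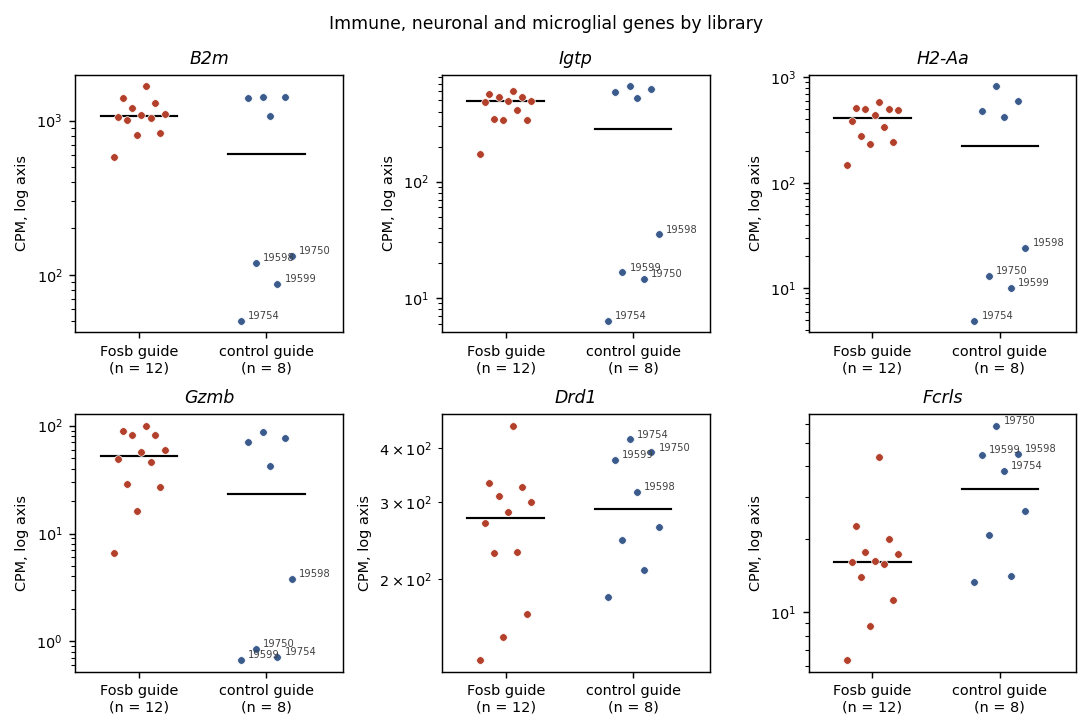
CPM on a log axis of MHC class I light chain (B2m), an interferon-induced GTPase (Igtp), MHC class II (H2-Aa), a cytotoxic granule protease (Gzmb), the D1 dopamine receptor (Drd1) and a resting microglial gene (Fcrls), with 12 Fosb-guide libraries left of 8 control-guide libraries; lines are medians and 4 control-guide libraries are numbered. Libraries 19598, 19599, 19750 and 19754 lie below every Fosb-guide library in the first 4 genes and are the 4 highest controls for Drd1 and Fcrls.

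The lists of interferon-responsive genes lay mostly above 0 in edgeR, with none called. Of 25 interferon-stimulated antiviral genes, 24 had an edgeR log2 fold change above 0, with a median of 0.33, and 0 passed the edgeR test; limma-voom called 16 of them. Of 14 interferon-gamma GTPases, 13 lay above 0 with a median of 0.41, and limma-voom called 12. All 17 MHC class I and immunoproteasome genes lay above 0, with a median of 0.38, and limma-voom called 16; of 8 MHC class II genes, 7 lay above 0 with a median of 0.31, and limma-voom called 7. With 3 surrogate variables the medians of these 4 lists were 0.76, 1.00, 0.90 and 0.94, and without the 4 libraries numbered 16760 to 16764 they were 0.38, 0.58, 0.68 and 0.77. For comparison, 49.0% of all tested genes lay above 0 in edgeR and 0.759% were called by limma-voom. The lists were chosen with earlier results known, and these shares are descriptions with no test.

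The mean log2 CPM over the antiviral list was 4.51 to 7.04 with the Fosb guide, with a median of 5.72. In the control-guide libraries it was 6.68, 6.31, 6.24 and 6.21 in 19727, 16760, 19719 and 19762, and from 0.99 to 2.61 in 19598, 19599, 19750 and 19754, lowest in 19754. Within the Fosb-guide group, 19596 and 16761 were lowest, at 4.51 and 4.53, and 16762 was highest. In all 25 antiviral genes, all 14 interferon-gamma GTPases, all 17 MHC class I genes and all 8 MHC class II genes, the 4 lowest of the 8 controls were 19598, 19599, 19750 and 19754. The same was true of all 193 genes that limma-voom called, and of 18.4% of all tested genes (4689 of 25420). Of those 193 genes, 26 had an unadjusted edgeR p under 0.05 and 65 belong to a list used here. The part of these 4 libraries in the limma-voom calls was not tested by leaving them out together, since they were recognised by their values.

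**Figure D4:**
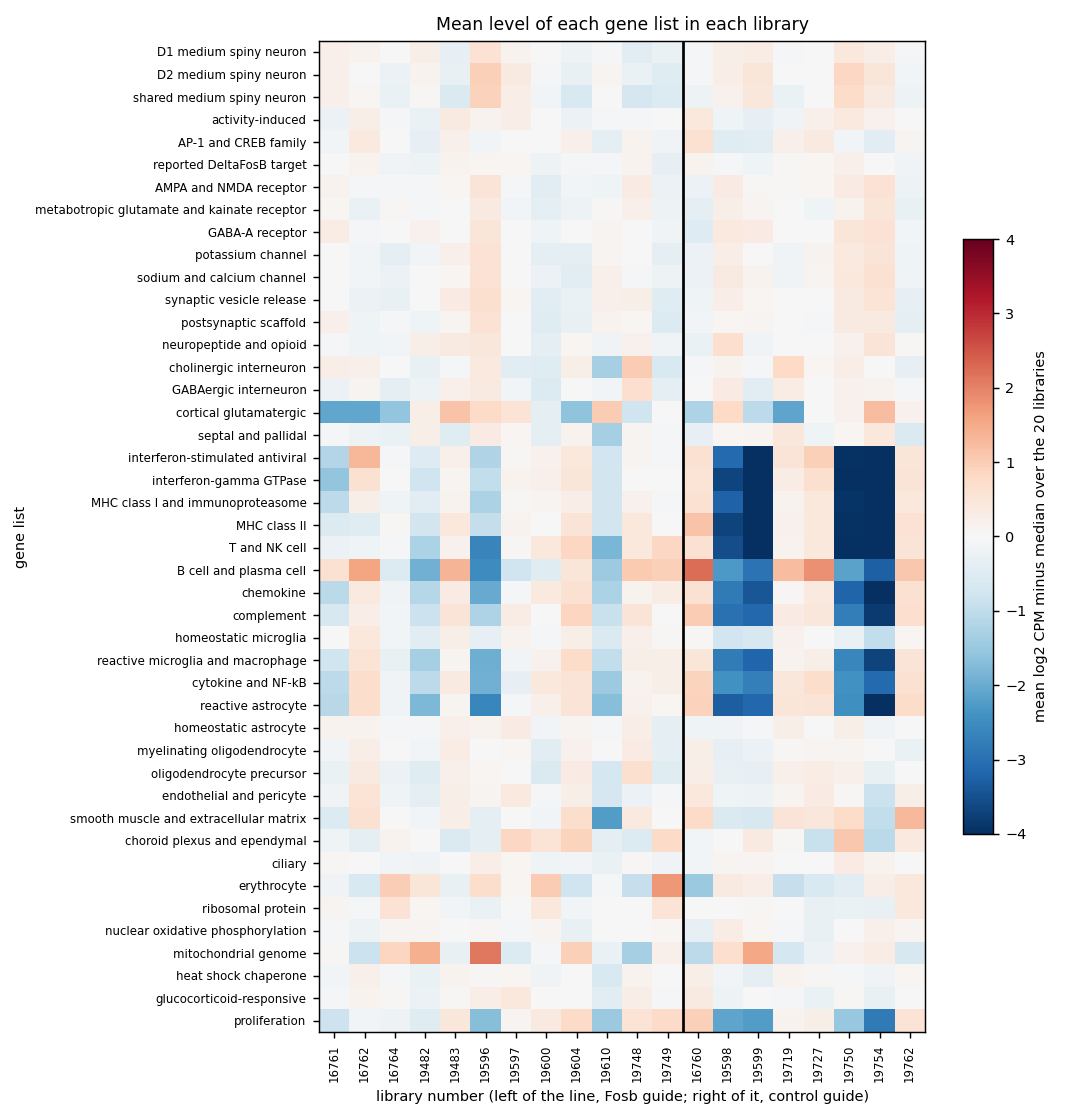
Mean log2 CPM of 44 gene lists in each library, less the median over the 20 libraries; columns left of the black line are Fosb-guide libraries and those right of it control-guide libraries, and the colour scale ends at 4 in either direction. The immune lists are dark blue in control-guide libraries 19598, 19599, 19750 and 19754, and the medium spiny neuron lists differ less between libraries.

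Transcripts of T and NK cells were low in the same 4 controls as the interferon genes. Of 17 T and NK cell genes, 15 had edgeR log2 fold changes above 0, with a median of 0.62, and 0 passed the test in edgeR or limma-voom. Gzmb, a granule protease of cytotoxic cells, had 6.67, 52.8 and 100 CPM at the lowest, median and highest with the Fosb guide. In the controls it had 86.7, 77.6, 70.4 and 42.5 CPM in 19762, 16760, 19727 and 19719, and 3.82, 0.855, 0.725 and 0.673 CPM in 19598, 19750, 19754 and 19599. Here too every Fosb-guide library lay above the same 4 controls, and the Fosb-guide libraries ran from below to above the other 4. Cd8b1, a chain of the CD8 co-receptor, averaged 8.35 ± 4.91 CPM with the Fosb guide and 4.26 ± 4.38 CPM with the control guide (log2 fold change 1.02, standard error 0.58). Of 10 B cell and plasma cell genes, 3 lay above 0 in edgeR with a median of -0.34, although the 4 lowest controls were 19598, 19599, 19750 and 19754 in all 10. That median was -0.02 with 3 surrogate variables and -0.09 without the 4 libraries numbered 16760 to 16764, and Cd79a and Ms4a1 were below 0 in edgeR (-0.69 and -0.60) and above 0 in limma-voom (0.70 and 0.73). In bulk tissue, fewer cells of a type and less RNA per cell cannot be told apart.

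Chemokine genes were mixed. Of 14, 11 lay above 0 with a median of 0.24, and limma-voom called 2 of them, Ccl8 and Ccl12, where it called 0.759% of all tested genes. Ccl12 is a ligand that draws monocytes through Ccr2. Ccl12 averaged 24.3 ± 9.17 CPM with the Fosb guide and 13.6 ± 11.7 CPM with the control guide (edgeR log2 fold change 0.83, standard error 0.36, adjusted p = 1.0). Cxcl10, an interferon-induced ligand of T cells, averaged 159 ± 95.7 CPM with the Fosb guide and 155 ± 164 CPM with the control guide (0.05). Of 14 complement genes, 10 lay above 0 with a median of 0.35; limma-voom called 6, and the surrogate-variable model called C1qa and C1qc, chains of the C1q recognition complex (0.759% and 0.0472% of all tested genes were called by these models). C1qa averaged 424 ± 129 CPM with the Fosb guide and 298 ± 234 CPM with the control guide.

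Both microglial lists lay mostly above 0. Of 18 genes of reactive microglia and macrophages, 15 lay above 0 with a median of 0.32, and 3 were called by limma-voom, against 0.759% of all tested genes. The surrogate-variable model called 2, Fcer1g and Ctss, against 0.0472% of all tested genes. In 16 of the 18, the 4 lowest controls were 19598, 19599, 19750 and 19754, as in 18.4% of all tested genes. Spp1, osteopontin, averaged 18.1 ± 9.67 CPM with the Fosb guide and 9.22 ± 7.68 CPM with the control guide (log2 fold change 1.00, standard error 0.41), and Ctss, a lysosomal protease, averaged 831 ± 260 CPM with the Fosb guide and 598 ± 516 CPM with the control guide (0.47). Of 12 genes of homeostatic microglia, 9 lay above 0 with a median of 0.21, and limma-voom called 2. At an unadjusted edgeR p under 0.05, 3 were higher, among them Tmem119 and Olfml3 (0.49 and 0.45). Fcrls was the 1 gene lower at that p, where 1.33% of all tested genes were. P2ry12, the purinergic receptor of resting microglia, averaged 41.5 ± 6.94 CPM with the Fosb guide and 43.9 ± 16.9 CPM with the control guide. Against the background of 2.07% of tested genes higher at this p, 3 of 12 is a larger share, but the 4 low controls in Tmem119 (24.1 to 29.0 CPM) were again 19598, 19599, 19750 and 19754.

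Proliferation genes and reactive astrocyte genes were also lowest in the same controls. Of 12 proliferation genes, 11 lay above 0 with a median of 0.33 and 0 were called; in all 12, the lowest 4 controls were the same libraries. Cdk1, the mitotic kinase, averaged 12.8 ± 7.04 CPM with the Fosb guide and 8.39 ± 7.82 CPM with the control guide. The 12 reactive astrocyte genes had a median of 0.05, and Gfap, the astrocytic intermediate filament, had 190, 529 and 998 CPM at the lowest, median and highest with the Fosb guide, against 44.1, 585 and 1029 CPM with the control guide. The cytokine and NF-kB list had a median of 0.11 over 16 genes, 10 of them above 0, and limma-voom called 1, Casp1, the inflammasome protease.

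Medium spiny neuron genes lay slightly lower with the Fosb guide, and none passed a test. Of 16 genes shared by all medium spiny neurons, 0 lay above 0 and the median was -0.20; of 7 D2 genes 0 lay above 0 (median -0.18), and of 8 D1 genes 1 did (median -0.13). At an unadjusted p under 0.05, 1 of these 31 genes was lower, the receptor phosphatase Ptprm, where 1.33% of all tested genes were. Drd1, the D1 dopamine receptor, had 131, 277 and 450 CPM at the lowest, median and highest with the Fosb guide, against 182, 290 and 418 CPM with the control guide (log2 fold change -0.18, standard error 0.19). Adora2a, the adenosine receptor of D2 neurons, averaged 129 ± 44.8 CPM with the Fosb guide and 152 ± 27.8 CPM with the control guide (-0.24, standard error 0.23). Pde10a, the striatal phosphodiesterase, averaged 490 ± 230 CPM with the Fosb guide and 599 ± 191 CPM with the control guide (-0.29, standard error 0.23).

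The same controls stood at the other end for many of these genes. In 10 of the 16 shared medium spiny neuron genes, the 4 highest controls were 19598, 19599, 19750 and 19754, as in 13.4% of all tested genes (3411 of 25420). They were the 4 highest in 3 of the 8 D1 genes and 2 of the 7 D2 genes. Drd1 was 317, 376, 390 and 418 CPM in those libraries and 182 to 263 CPM in the other 4 controls. The Fosb-guide libraries spanned both, with 19596 the highest at 450 CPM and 19748 the lowest at 131 CPM. Fosb-guide library 19596 was also the highest of the 12 in the shared list and the lowest in the antiviral list, at 8.84 and 4.51 mean log2 CPM.

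Ion channel and receptor genes lay in the same direction. Of 17 sodium and calcium channel genes 0 lay above 0 (median -0.18), of 20 potassium channel genes 2 did (median -0.17), of 10 AMPA and NMDA receptor genes 1 did (median -0.14), and of 12 GABA-A receptor subunits 2 did (median -0.10). With 3 surrogate variables these medians were -0.08, -0.12, -0.08 and 0.04, so that the GABA-A median changed sign. Cacna2d3, an auxiliary calcium channel subunit, averaged 151 ± 36.6 CPM with the Fosb guide and 188 ± 49.8 CPM with the control guide (log2 fold change -0.32, unadjusted p = 0.0388, adjusted p = 1.0 in edgeR). Grm5, the group I metabotropic glutamate receptor, averaged 406 ± 102 CPM with the Fosb guide and 487 ± 139 CPM with the control guide (-0.26, adjusted p = 1.0). In 11 of the 17 sodium and calcium channel genes and 8 of the 12 GABA-A subunits the 4 highest controls were again 19598, 19599, 19750 and 19754. That held for 4 of the 20 potassium channel genes and 4 of the 10 AMPA and NMDA receptor genes. It also held for 6 of 11 metabotropic glutamate and kainate receptor genes, 4 of 18 synaptic vesicle genes and 4 of 15 scaffold genes. Among all tested genes the share was 13.4%. Synaptic vesicle genes (3 of 18 above 0, median -0.09) and postsynaptic scaffold genes (2 of 15, median -0.07) lay nearer to 0.

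The medians of activity-dependent and AP-1 genes lay close to 0. Of 24 activity-induced genes 5 lay above 0, with a median of -0.06; of 16 AP-1 and CREB family genes 8 did, with a median of -0.01; and of 14 genes reported elsewhere as ΔFosB targets 4 did, with a median of -0.04. Fos averaged 16.5 ± 7.04 CPM with the Fosb guide and 16.2 ± 8.18 CPM with the control guide, and Junb, its partner in AP-1, 80.3 ± 17.8 CPM with the Fosb guide and 81.6 ± 30.8 CPM with the control guide. Fosl2, another Fos family member, was the exception at an unadjusted p under 0.05: 18.3, 28.3 and 45.9 CPM at the lowest, median and highest with the Fosb guide, against 22.9, 34.9 and 63.9 CPM with the control guide (log2 fold change -0.38, unadjusted p = 0.0492, adjusted p = 1.0 in edgeR). Of the reported ΔFosB targets, Cdk5, the kinase of the p35 pathway, averaged 50.2 ± 6.01 CPM with the Fosb guide and 50.2 ± 9.18 CPM with the control guide, and Pdyn, prodynorphin, averaged 185 ± 55.4 CPM with the Fosb guide and 224 ± 36.7 CPM with the control guide (-0.27, standard error 0.23).

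**Figure D5:**
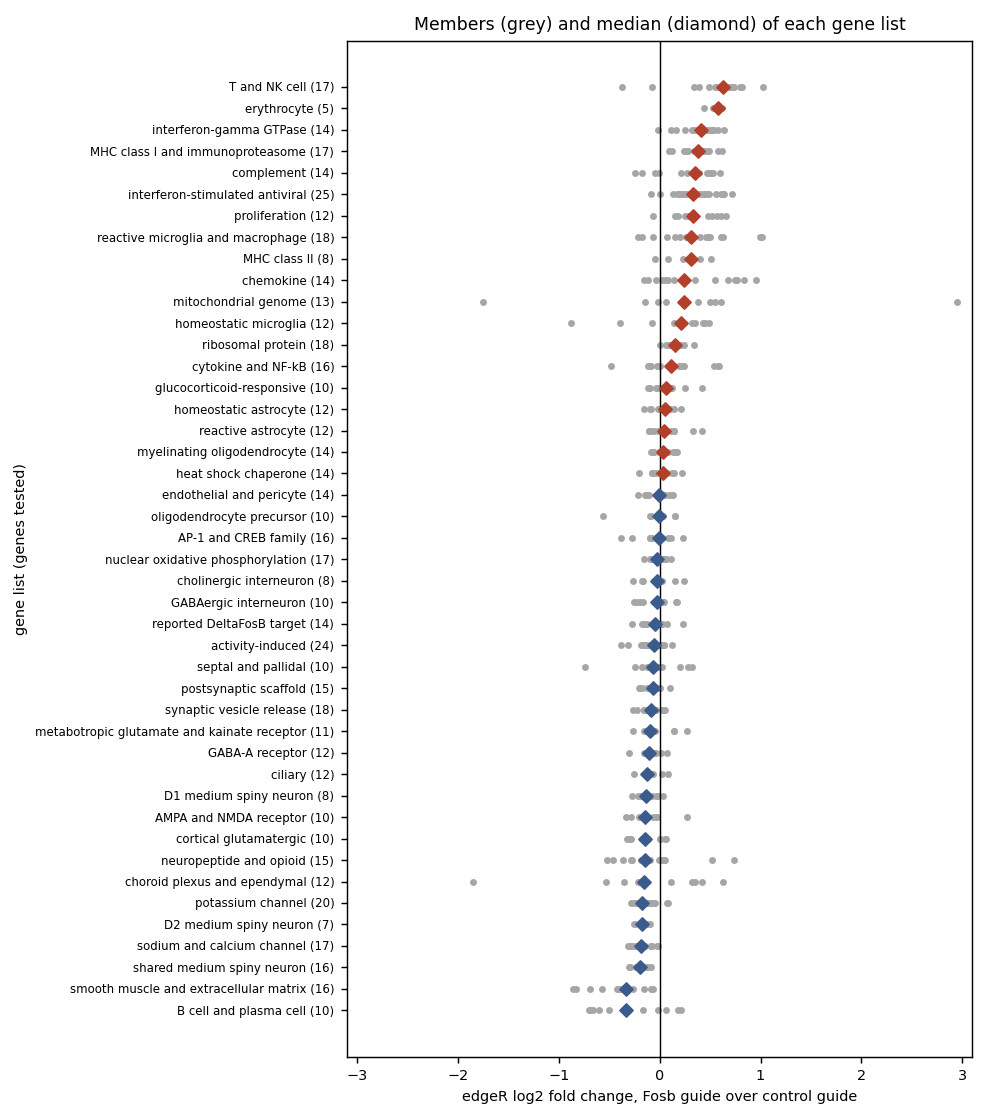
Gene lists in the comparison: edgeR log2 fold change (Fosb guide over control guide) of every tested member in grey and the list median as a diamond, with the number of genes tested in brackets. Interferon, MHC, T and NK cell, erythrocyte and ribosomal protein lists have medians above 0, and the B cell, medium spiny neuron, channel and matrix lists have medians below 0.

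Lists of other cell types were near 0 or varied widely within both groups. The lists of homeostatic astrocytes, myelinating oligodendrocytes, oligodendrocyte precursors and endothelial cells had medians of 0.05, 0.03, -0.01 and -0.003. Of 8 cholinergic interneuron genes 4 lay above 0 (median -0.03), and of 10 GABAergic interneuron genes 4 did (median -0.03). Slc17a7, the vesicular glutamate transporter of cortical projection neurons, had 3.50, 86.1 and 412 CPM at the lowest, median and highest with the Fosb guide, against 2.77, 87.4 and 358 CPM with the control guide, a spread of the same size in both groups. All 16 smooth muscle and matrix genes lay below 0, with a median of -0.33, and 2 of them, Eln and Myh11, had an unadjusted p under 0.05, where 1.33% of all tested genes were lower at that p; control-guide library 19750 held the highest value of both, 9.69 and 23.2 CPM. All 5 erythrocyte genes lay above 0, with a median of 0.58, or 0.32 without libraries 19610 and 19749, the second of which was the highest of the 20 in this list at 6.39 mean log2 CPM. Hba-a1 and Hba-a2 share nearly identical coding sequence, so their counts are not independent. All 18 ribosomal protein genes lay above 0 by small amounts, with a median of 0.15. The mean log2 CPM of that list had a median of 8.12 in both groups. It was highest in Fosb-guide libraries 16764, 19749 and 19600 (8.70, 8.67 and 8.55), followed by control-guide library 19762 (8.53).

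Finally, the female effect without Cre dependence was compared with the others of the series by interaction terms in the same edgeR model. Against the male effect without Cre dependence, 0 of 25420 genes passed (0.0%), with 1069 genes at an unadjusted p under 0.05; against the mean of the female D1-dependent and D2-dependent effects, 0 passed (0.0%), with 474 genes. The medians of the shared, D1 and D2 medium spiny neuron lists were -0.20, -0.13 and -0.18 in females and 0.19, 0.12 and 0.14 in males, and those of the antiviral and interferon-gamma GTPase lists were 0.33 and 0.41 in females and 0.32 and 0.27 in males. With D1-dependent vectors in females the antiviral and GTPase medians were -0.17 and -0.13, and with D2-dependent vectors they were 0.18 and 0.14. Lyst had effects of -0.31 in females and 0.34 in males (difference -0.65, unadjusted p = 0.000213, adjusted p = 1.0), and Fosl2 had -0.38 in females and 0.73 in males (difference -1.10, unadjusted p = 0.000959, adjusted p = 1.0). For Pdzph1 the effect was -0.02 in males, -0.13 with D1-dependent and 0.06 with D2-dependent vectors in females. The difference between the female effect without Cre dependence and the mean of those 2 female effects was 0.94 (unadjusted p = 0.000283, adjusted p = 1.0). Lyst, Fosl2 and Pdzph1 were named for small p-values of the female effect, which is part of each difference. The unadjusted p-values of these differences are therefore not independent of that choice.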

How the data were processed

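Nucleus accumbens RNA was sequenced by the submitters; per the submitters' processing notes, reads were handled with Trim Galore, HISAT2, SAMtools, featureCounts of Subread and DESeq2 1.27 on mm10, with neither annotation nor strand setting named there. The authors deposited 1 table of raw counts for 55487 genes; 87 of its columns matched a label and 1 did not and was left out. Symbols came from a table of gene names, and positions from the GENCODE annotation of mm10. Counts were tested with edgeR 4.0.16 (quasi-likelihood, robust, TMM) in R 4.3.3, with 12 groups and batch in 1 model, after a filter on low counts by group, and adjusted by the Benjamini-Hochberg method. Alternatives were DESeq2 1.42.0, limma-voom 3.58.1 with quality weights, 3 surrogate variables (sva 3.50.0), DESeq2 size factors, no filter, the 20 libraries alone and leaving out libraries; the scripts were tested on simulated data. Mean log2 CPM used a prior count of 2. Named genes were Fosb, the 10 of smallest p on each side of 0 among genes averaging 1 CPM or more, and, per list, the 3 of smallest p or, for cell markers, of highest level; other members named serve to describe their list. The members and lists were chosen with earlier results of these data known. The results of some genes are not reported here.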

Additional observations from a re-analysis of the deposited data

Results flagged for a closer look

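In 65 sets of 8 control-guide values, 1 library lay far from the others in 9. The measure was the gap to its nearest neighbour over the whole range. The cut on this gap has a chance rate of about 1 in 20 only for independent sets of normally distributed values. CPM values need not be normal, and every flagged gene was named for a small p-value in these same libraries. That rate therefore does not apply here, and the 9 flags are a description with no test of excess. Control-guide library 19762 was far above the others in Klhdc1 (83.9 CPM), Klhdc2 (402 CPM), Myoc (42.8 CPM), Lama1 (10.8 CPM) and Slc22a6 (10.1 CPM), genes that were named for low p-values. Library 19750 was far above in Eln (9.69 CPM) and in Lars2 (15290 CPM). Library 19727 was far below in Mettl7a1 (12.7 CPM), and library 19599 was far below in the mean level of the GABAergic interneuron list (3.46 log2 CPM).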

How the results depend on the processing

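The count of genes called was 0 in edgeR (25420 genes tested), with DESeq2 size factors (25420), without the filter (49323), with the 20 libraries alone (21207), without the 4 libraries numbered 16760 to 16764 (25382) and without both 19610 and 19749 (25417). It was 2 with DESeq2, 193 with limma-voom and 12 with 3 surrogate variables, and it ranged from 0 to 1 when each library was left out, the 1 being Pdzph1 without control-guide library 19762. The difference from the male effect ranged from 0 to 1 gene when each library was left out and was 1 with DESeq2 size factors and 1 with DESeq2, the gene Gm23935 each time. The difference from the Cre-dependent female effects ranged from 0 to 4 genes: without Fosb-guide library 19749, and without both it and 19610, 4 Y-linked genes were called (Kdm5d, Eif2s3y, Uty and Ddx3y). Fosb turned to -0.003 without the 4 libraries numbered 16760 to 16764 and to -0.016 without Fosb-guide library 19596, its range over single libraries left out being -0.016 to 0.162. Signs turned for Myoc (-2.973 to 0.072 over single libraries left out, the last without 19762), for Gabrb2 (0.007), Zic4 (0.076), Emx1 (0.132) and Neurod6 (0.356) with 3 surrogate variables, and for Cd79a (0.70), Ms4a1 (0.73) and Aqp1 (0.32) with limma-voom; the cause was not tested. No paired analysis was possible because the library numbers are not shared between the groups. The fits without 19610 and 19749 together, and those of the differences without single libraries, were chosen after seeing the data. With 430059 counts outside its 10 top genes, library 19610 holds few counts for genes of low level.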
